A study of Bos taurus with 20 samples.

Results

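POU5F1 (also called OCT4), NANOG and SOX2 are the 3 transcription factors at the core of the pluripotency network. They were chosen by gene symbol from the 15542 genes of the deposited table and followed through all 20 libraries of a study of cattle embryos (Bos taurus) at day 14 of development. In these data, transcripts of POU5F1 and NANOG were nearly absent from trophectoderm (TE) of fresh embryos. SOX2 had 1 read there, at a depth that bounds its level only loosely. POU5F1 reads, with few or no NANOG reads, were found in all 7 TE libraries of vitrified embryos. The 2 vitrified whole embryos were unlike each other, 1 with the highest level of each gene in the series and the other below every fresh whole embryo for POU5F1 and NANOG.

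POU5F1 is a POU-domain factor that keeps the cells of the epiblast, the tissue from which the body forms, in an undifferentiated state. SOX2 is an HMG-box factor that binds DNA beside POU5F1 on many shared targets, and NANOG is a homeodomain factor of the epiblast whose gene is itself a target of that pair. The TE is the outer epithelium that gives rise to the placenta, and the hypoblast is the layer that lines the yolk sac. In cattle, POU5F1 is known to persist in TE to a later stage than in the mouse, whereas NANOG and SOX2 are used as epiblast markers.

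The samples, sequenced as bulk RNA, were 2 whole embryos that had been vitrified, 7 samples of isolated TE from vitrified embryos, 6 fresh whole embryos, and 5 samples of isolated TE from fresh embryos. Vitrification is cryopreservation by cooling fast enough that water forms a glass instead of ice, and fresh embryos had not been vitrified. The embryos, 12 fresh and 9 vitrified in all, were flushed from the uterus, and the labels do not tie an embryo to a sample. The labels used here name neither the breed, nor the stage of vitrification, nor the way in which TE was isolated. The labels do not state that replicates came from separate animals, so p-values cover only the spread among these samples, which may in part be technical. In bulk RNA, fewer cells of a type and less RNA per cell cannot be told apart.

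Library depth was 6.01 to 14.53 M reads (M stands for 1000000), with 2.03 to 8.73 M reads in genes of the table. The 5 fresh TE libraries stood apart, with 33.8 to 40.3% of their reads in listed genes, against 57.5 to 63.9% in the other 15, and this moves with every difference from fresh TE. Among them, replicates 1 and 2, and replicates 3 and 4, differed far less than any other pair (chi-square per degree of freedom 1.88 and 1.48, against 11.9 to 22.6 for the other fresh TE pairs). The TE labels were checked against defining markers. KRT8, a keratin of TE, averaged 859 ± 113 RPKM in vitrified TE (SD, n = 7) and 163 ± 16.9 RPKM in fresh TE (SD, n = 5). IFNT, the interferon tau that TE secretes, went the other way, with 3.75 ± 0.959 RPKM in vitrified TE and 119 ± 19.9 RPKM in fresh TE. Of 24 tested genes of the TE list, 12 were higher and 8 lower in vitrified than in fresh TE in limma's fit described below, beside 69.0% of all tested genes called higher and 6.66% called lower. Under median-ratio scaling 7 of the 24 were higher and 13 lower. The hypoblast marker GATA4 had 46 to 93 reads in each vitrified TE library, against 0 to 3 reads in each fresh TE library, and the 24 hypoblast and yolk sac genes found summed to 767 to 1640 RPKM in vitrified TE and 176 to 351 RPKM in fresh TE. The 7 blood and immune genes found summed to 4.73 to 7.37 RPKM in vitrified TE and 11.3 to 16.9 RPKM in fresh TE. Most of the fresh TE sum was AIF1, with a mean of 11.4 RPKM there and 0.632 RPKM in vitrified TE. Of the 5 tested genes of this list, 3 were higher and 2 lower in vitrified than in fresh TE. The 7 endometrium genes summed to 0.135 to 0.641 RPKM in vitrified TE and 0.157 to 0.704 RPKM in fresh TE. The vitrified TE libraries thus held transcripts of hypoblast genes as well as of TE genes, and the part of this in the results for POU5F1 was not tested.

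The 3 genes were lowly expressed on the scale of the table, RPKM (reads per kilobase of genomic span, introns included, and per M reads). On the UMD3.1 assembly, POU5F1 lies on chromosome 23 (27769893 to 27774393, plus strand), NANOG on chromosome 5 (101871073 to 101876227, plus strand) and SOX2 on chromosome 1 (85933323 to 85934783, minus strand). Over all 20 libraries they received 1757 reads (POU5F1), 511 reads (NANOG) and 81 reads (SOX2). At least 10 reads were found in 15 libraries for POU5F1, in 7 for NANOG and in 2 for SOX2. The depth therefore carried statements on POU5F1 in every kind of sample but fresh TE, while SOX2 values outside vitrified whole embryo 2 rested on 10 reads or fewer. All 3 genes passed the filter for testing (10 reads in 2 libraries). NANOG and SOX2 passed it through whole embryos alone, as no TE library had 10 reads of either. In comparisons of whole embryos with TE, shares of all tested genes are thus not an even yardstick for these 2.

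In vitrified whole embryos, POU5F1 stood at 0.316 RPKM (12 reads, exact Poisson 95% interval 0.163 to 0.553) in embryo 1 and at 20.6 RPKM (830 reads, 19.2 to 22.0) in embryo 2. In vitrified TE the lowest, median and highest values were 0.302, 0.856 and 1.25 RPKM, and in fresh whole embryos they were 1.05, 1.70 and 6.01 RPKM. Fresh TE libraries stood at 0, 0.0370, 0.113, 0.0916 and 0.0664 RPKM, or 0 to 4 reads each. Every vitrified TE library was thus above every fresh TE library, as was so for 54.6% of tested genes. Embryo 1 of the vitrified embryos lay among the vitrified TE libraries, and vitrified TE overlapped the lower fresh whole embryos. These intervals, and the limits given for counts of 0, hold counting error alone.

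NANOG was not detected in vitrified whole embryo 1, where a count of 0 allows up to 0.0690 RPKM, and stood at 4.22 RPKM (195 reads) in embryo 2. The lowest, median and highest values were 0, 0 and 0.174 RPKM in vitrified TE and 0.381, 0.561 and 2.53 RPKM in fresh whole embryos. Fresh TE libraries 1, 2 and 4 had no NANOG read, and libraries 3 and 5 had 0.0741 and 0.0290 RPKM. Every fresh whole embryo was above every TE library of either kind. Of tested genes, 48.4% were so against fresh TE and 6.40% against vitrified TE. There was no NANOG read in 4 of the 7 vitrified TE libraries.

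SOX2 stood at 0.0813 RPKM (1 read) in vitrified whole embryo 1 and at 2.98 RPKM (39 reads) in embryo 2. The lowest, median and highest values were 0, 0.0886 and 0.307 RPKM in vitrified TE and 0, 0.347 and 0.588 RPKM in fresh whole embryos. In fresh TE, library 2 had 0.114 RPKM from 1 read and the other 4 had none. In those 4, a count of 0 allows up to 0.262 to 0.333 RPKM, just under the fresh whole embryo median. Vitrified TE and fresh whole embryos overlapped for SOX2, and only vitrified whole embryo 2 lay clear of all other libraries.

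**Figure D1:**
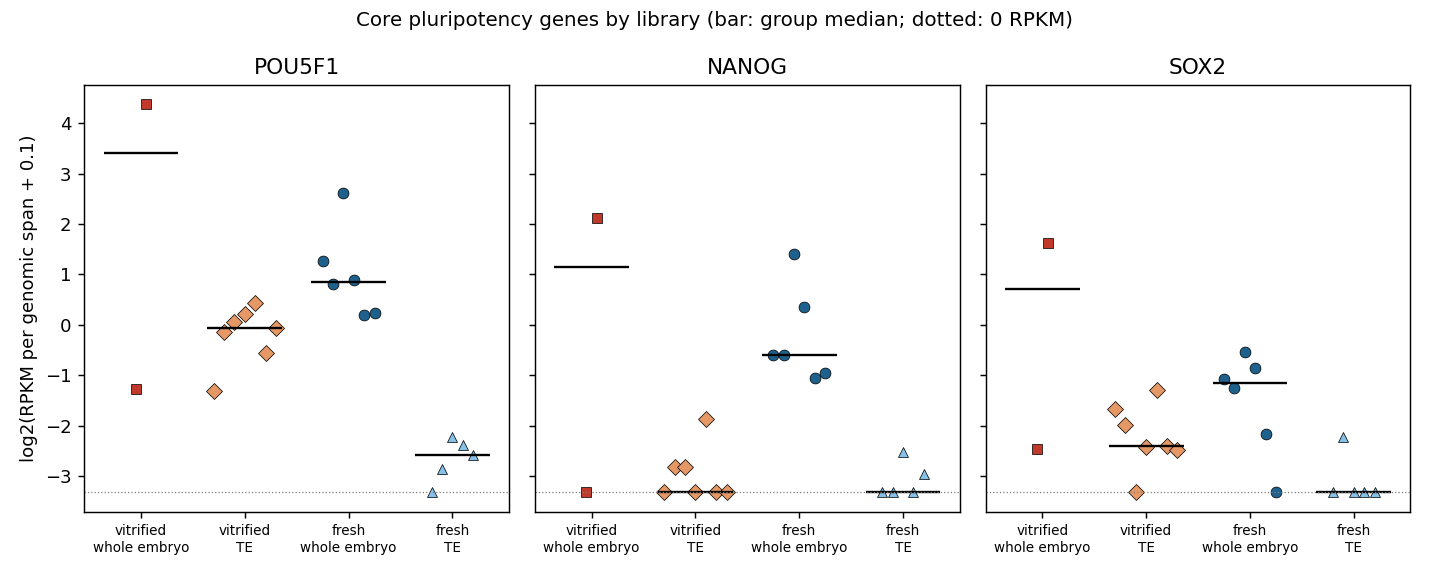
POU5F1, NANOG and SOX2 in each library, as log2(RPKM + 0.1), in vitrified whole embryos (n = 2), vitrified TE (n = 7), fresh whole embryos (n = 6) and fresh TE (n = 5). Each point is a library, the bar is the group median and the dotted line is 0 RPKM. Vitrified whole embryo 2 is the highest point of each panel (20.6, 4.22 and 2.98 RPKM), and vitrified TE lies above fresh TE for POU5F1 but at or near 0 for NANOG.

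By group mean, all 3 genes had the same order, with vitrified whole embryos highest, then fresh whole embryos, vitrified TE and fresh TE. Vitrified and fresh whole embryos overlapped for each gene. Of the next neighbours, vitrified TE and fresh whole embryos overlapped for POU5F1 and SOX2 but not for NANOG. Of all tested genes, 6.40% were likewise lower in vitrified TE without overlap. Vitrified TE and fresh TE overlapped for NANOG and SOX2 but not for POU5F1, and 54.6% of all tested genes were likewise higher in vitrified TE without overlap. The place where the level dropped by the largest factor thus differed between the 2 best measured genes: for POU5F1 it lay between vitrified TE and fresh TE, and for NANOG between fresh whole embryos and vitrified TE.

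Fresh whole embryos, which still hold the epiblast, were compared with fresh TE. POU5F1 averaged 2.30 ± 1.87 RPKM in fresh whole embryos (SD, n = 6) and 0.0617 ± 0.0447 RPKM in fresh TE (SD, n = 5), a ratio of means of 37.4. Over pooled reads (679 in fresh whole embryos and 10 in fresh TE) the ratio was 37.1, with an exact 95% counting interval of 20.02 to 77.6. NANOG averaged 0.939 ± 0.832 RPKM in fresh whole embryos and 0.0206 ± 0.0324 RPKM in fresh TE. On pooled reads its ratio, 40.9, rested on 300 reads in fresh whole embryos and 4 in fresh TE, and the counting interval was 15.8 to 151. Both rose in limma's fit across all 10599 genes tested, POU5F1 by 1.49 ± 0.46 (SE) on the log2(RPKM + 1) scale with an adjusted p of 0.0076, and NANOG by 0.84 ± 0.29 with an adjusted p of 0.015. Their groups did not overlap, as was so for 48.4% of tested genes with fresh whole embryos higher, and each gave 0.00649 in an exact two-sided permutation test of the RPKM.

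SOX2 averaged 0.309 ± 0.216 RPKM in fresh whole embryos and 0.0228 ± 0.0510 RPKM in fresh TE, a log2 difference of 0.34 ± 0.21 in limma with an adjusted p of 0.15. The exact permutation test gave 0.0281, and 5 of 6 fresh whole embryos were above every fresh TE library. Of the 3 genes, 2 were thus called higher in fresh whole embryos, beside 60.0% of all tested genes called higher in the same comparison. Of these 2, NANOG had passed the filter through whole embryos alone. The calls for POU5F1 and NANOG held under 3 other scalings of the libraries. With the near-identical fresh TE libraries averaged, NANOG no longer passed (adjusted p = 0.053). That leaves 3 fresh TE samples, and the permutation p became 0.0714 for POU5F1 and 0.0833 for NANOG, with the groups of each gene still apart.

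Vitrified TE was compared with fresh TE. POU5F1 averaged 0.827 ± 0.312 RPKM in vitrified TE (SD, n = 7) and 0.0617 ± 0.0447 RPKM in fresh TE (SD, n = 5), a ratio of means of 13.4. The exact permutation test gave 0.00253, and every vitrified TE library was higher, as was so for 54.6% of tested genes. With the near-identical fresh TE libraries averaged, the exact permutation p was 0.00833. In limma the difference was 0.76 ± 0.44 on the log2(RPKM + 1) scale with an adjusted p of 0.12, so that by the model's threshold it did not pass. This model shares 1 estimate of spread between all 4 groups, and without vitrified whole embryo 2 the same difference had an adjusted p of 0.0050. With a pseudocount of 0.1 in place of 1 the difference was 2.48 with an adjusted p of 0.0017.

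NANOG averaged 0.0370 ± 0.0637 RPKM in vitrified TE and 0.0206 ± 0.0324 RPKM in fresh TE, with a limma difference of 0.02 ± 0.28 (adjusted p = 0.95) and an exact permutation p of 0.753. SOX2 averaged 0.133 ± 0.102 RPKM in vitrified TE and 0.0228 ± 0.0510 RPKM in fresh TE, with a limma difference of 0.14 ± 0.20 (adjusted p = 0.52) and an exact permutation p of 0.0581. At 0 to 8 NANOG reads per library, no NANOG difference between the TE groups was detected. A small one could be missed at this depth, and the smallest that could be seen was not computed. For SOX2, at 0 to 4 reads per library, the call depended on the setting, and it passed in limma when these groups alone were fitted (adjusted p = 0.033). None of the 3 genes was called by limma in this comparison, at an adjusted or an unadjusted p, beside 75.6% of all tested genes called in either direction. The libraries of fresh TE enter both this comparison and the one with fresh whole embryos, so the POU5F1 differences of 0.76 and 1.49 share their lower side.

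Vitrified whole embryos were compared with fresh whole embryos, a comparison that rests on 2 unlike libraries. In embryo 2, POU5F1 was 65.1-fold and NANOG at least 61.2-fold higher than in embryo 1, NANOG against the limit of 3 reads in that library. The SOX2 ratio of 36.7 rested on 39 reads against 1, with an exact 95% counting interval of 6.21 to 1486. Embryo 2 was also above the highest fresh whole embryo, 3.43-fold for POU5F1, 1.67-fold for NANOG and 5.07-fold for SOX2. Embryo 1 was below the lowest fresh whole embryo for POU5F1 and NANOG. By comparison, the 6 fresh whole embryos ranged over 5.71-fold for POU5F1 and 6.63-fold for NANOG.

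Across all genes, vitrified whole embryo 1 had rank correlations of 0.943 to 0.979 with the vitrified TE libraries, 0.963 with embryo 2, 0.908 to 0.962 with the fresh whole embryos and 0.838 to 0.865 with fresh TE. Embryo 2 had rank correlations of 0.939 to 0.963 with the vitrified TE libraries, 0.901 to 0.959 with the fresh whole embryos and 0.823 to 0.854 with fresh TE. How these profiles relate to the low POU5F1 of embryo 1 was not tested. In limma the 3 genes differed between vitrified and fresh whole embryos by 0.83 ± 0.62 for POU5F1 (adjusted p = 0.32), 0.33 ± 0.39 for NANOG (adjusted p = 0.55) and 0.68 ± 0.28 for SOX2 (adjusted p = 0.069). None was called, and SOX2 alone was under 0.05 before adjustment, beside 30.9% of all tested genes called in either direction. The exact permutation p was 0.25 for POU5F1, 0.393 for NANOG and 0.214 for SOX2, where 0.0357 is the smallest that 2 against 6 samples allow. Without embryo 2 the limma differences were -1.18, -0.87 and -0.26 in the same order of genes, and without embryo 1 they were 2.85, 1.52 and 1.62. The sign of each thus changed with the embryo left out.

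Vitrified whole embryos were also set against vitrified TE. In limma NANOG was higher in the whole embryos by 1.14 ± 0.38 (adjusted p = 0.043) and SOX2 by 0.88 ± 0.27 (adjusted p = 0.032), while POU5F1 differed by 1.56 ± 0.60 (adjusted p = 0.074). That made 2 of 3 genes called higher, beside 15.3% of tested genes. Both had passed the filter through whole embryos alone, which favours such a call. NANOG's call was also lost under 9 of the 10 other settings of the fit and SOX2's under 8 of 9. Both rested on embryo 2: without it NANOG differed by -0.05 (adjusted p = 0.95) and SOX2 by -0.06 (adjusted p = 0.86). Exact permutation p ranged from 0.167 to 0.222 over the 3 genes, where 0.0278 is the smallest possible. A test of whether the effect of vitrification differed between whole embryos and TE called none of the 3 genes at an adjusted or an unadjusted p (POU5F1 0.07 ± 0.76, adjusted p = 0.96; NANOG 0.30 ± 0.48, adjusted p = 0.66; SOX2 0.54 ± 0.34, adjusted p = 0.24), beside 32.3% of tested genes.

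The amounts of NANOG and SOX2 relative to POU5F1 were compared within libraries, where the number of reads in the library cancels. In vitrified TE, NANOG reads made up 0, 0 and 13.8% (lowest, median and highest) of NANOG and POU5F1 reads together, and the mean was 3.48 ± 5.19% (SD, n = 7). In fresh whole embryos they made up 21.9, 30.2 and 43.5%, with a mean of 31.1 ± 7.13% (SD, n = 6). The ranges did not overlap, the difference of vitrified TE from fresh whole embryos was -27.6 points, and the exact two-sided permutation p was 0.000583, the smallest that 7 against 6 samples can give. The share and its test were added after the data were seen, so this p is a description. Over all vitrified TE libraries there were 12 NANOG reads beside 226 POU5F1 reads, a share of 5.04%, and over the fresh whole embryos 300 beside 679, a share of 30.6%.

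In vitrified whole embryo 2 the NANOG share was 19.0% (exact Clopper-Pearson 95% interval 16.7 to 21.6%), below each fresh whole embryo's value, although embryo 2 had the most NANOG of all libraries. In embryo 1 there was no NANOG read beside 12 POU5F1 reads, which allows a share of up to 25.0%. That limit is above every vitrified TE value (0 to 13.8%) but, of the fresh whole embryos, above the lowest alone (21.9%). The vitrified TE values have wide limits too. In vitrified TE 1, no NANOG read beside 13 POU5F1 reads allows up to 23.1%, and the exact 95% interval of vitrified TE 5 reaches 25.4%. The SOX2 share did not follow the NANOG share. It averaged 6.02 ± 6.10% in vitrified TE and 4.23 ± 2.65% in fresh whole embryos (exact permutation p = 0.635), and was 4.49% in vitrified whole embryo 2. Vitrified TE differs from fresh whole embryos both in tissue and in vitrification, and the parts of these in the share cannot be told apart here.

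**Figure D2:**
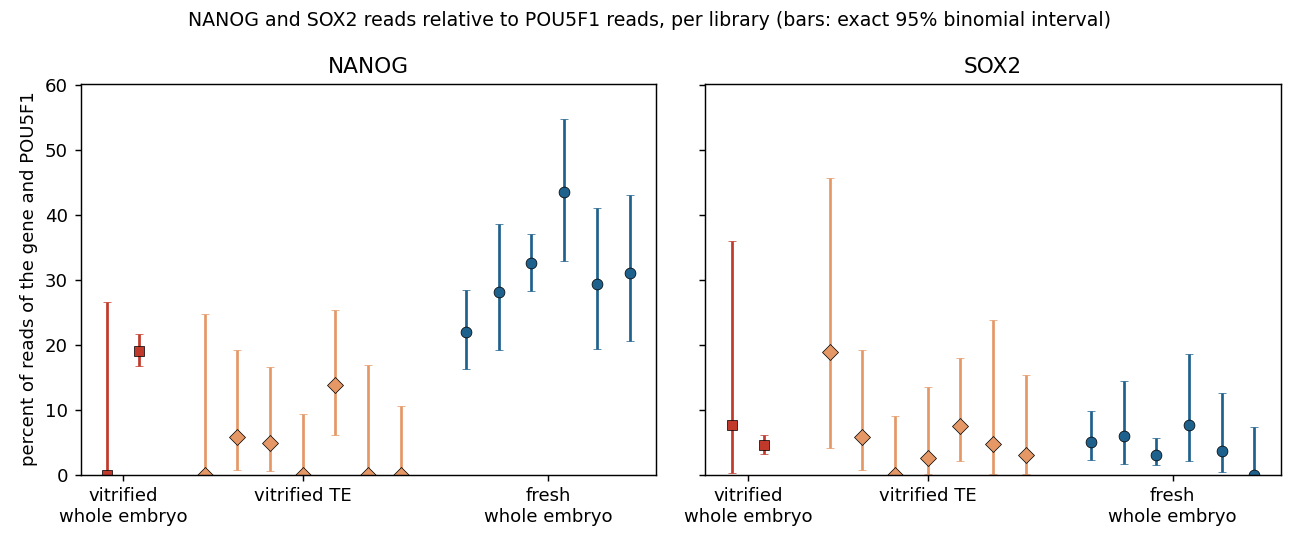
NANOG reads (left) and SOX2 reads (right) as a percent of their sum with POU5F1 reads in each vitrified whole embryo, vitrified TE and fresh whole embryo library. Points are libraries and bars are exact 95% binomial intervals. For NANOG all 7 vitrified TE libraries (0 to 13.8%) lie under all 6 fresh whole embryos (21.9 to 43.5%), while for SOX2 the groups overlap.

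The same direct comparison of levels gave, as a mean in vitrified TE relative to the mean in fresh whole embryos, 35.9% for POU5F1, 3.94% for NANOG and 42.9% for SOX2. NANOG was lower in every vitrified TE library than in every fresh whole embryo (exact permutation p = 0.000583), as was so for 6.40% of tested genes. This comparison was also added after the data were seen, and it uses the same NANOG reads as the share. POU5F1 was lower on average (exact permutation p = 0.0035) with overlap, and for SOX2 the test gave 0.081. In fresh TE the means were 2.68% (POU5F1), 2.20% (NANOG) and 7.38% (SOX2) of those in fresh whole embryos. The fresh TE percentages rested on 10, 4 and 1 reads in the same order of genes, and they were not tested against each other.

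Across the 8 whole embryos the 3 genes moved together. Of POU5F1 and NANOG, Pearson's r on log2(RPKM + 0.1) was 0.945 (exact permutation p = 0.000595, adjusted over 9 relations 0.00536) and Spearman's rho 0.929 (p = 0.00223, adjusted 0.0137). The 2 embryos farthest from the median of POU5F1 were the 2 vitrified ones. Over the 6 fresh embryos left, r was 0.893 (exact permutation p = 0.0306, adjusted 0.0688) and rho 0.829 (p = 0.0583, adjusted 0.0875), so that this relation no longer passed after adjustment.

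For POU5F1 and SOX2, r was 0.897 over 8 embryos (exact permutation p = 0.00439, adjusted 0.0198; rho 0.905, p = 0.00456) and 0.760 over the 6 fresh ones (exact p = 0.0875). For NANOG and SOX2 it was 0.808 over 8 embryos (exact permutation p = 0.0205, adjusted 0.0616; rho 0.905, p = 0.00456) and 0.728 over the 6 fresh ones (exact p = 0.075). By r, NANOG and SOX2 thus did not pass after adjustment. POU5F1 and SOX2 passed over the 8 embryos, but without vitrified whole embryo 2 r was 0.743 (exact permutation p = 0.0502). Within the 7 vitrified TE libraries no pair passed: r was 0.566 for POU5F1 and NANOG, -0.158 for POU5F1 and SOX2 and 0.431 for NANOG and SOX2 (exact permutation p = 0.20, 0.713 and 0.348), on 8 or fewer reads of NANOG and SOX2 per library.

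Genes were ranked by how closely they followed POU5F1 across the 8 whole embryos, among 8546 genes with a symbol and 10 reads in at least 4 of these libraries. The measure was Pearson's r on log2(RPKM + 0.1), and since all values come from the same 8 libraries, it is a description. The median r of the 9330 genes ranked, those without a symbol included, was 0.221, and 46 genes were over 0.9. The 10 closest genes were CLDN10 (r = 0.992), MSX1 (0.987), NNAT (0.984), AURKA (0.976), RMC1 (0.971), CLDN1 (0.970), ERAS (0.966), GAS8 (0.963), CCDC151 (0.959) and GYPC (0.958). NANOG stood at rank 17 of all. SOX2, with r of 0.897, had 10 reads in too few of these libraries to be ranked.

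These genes differed in how far they moved. POU5F1 spanned 5.64 log2 units over the 8 embryos. NNAT, an imprinted gene for a small membrane protein, spanned 7.13, and ERAS, a constitutively active Ras protein known from mouse embryonic stem cells, spanned 7.08. AURKA, a mitotic kinase, spanned 0.49. CLDN10, a tight junction claudin, had 0 to 38 reads per embryo, at levels where the added 0.1 RPKM limits the span. A high r thus did not mark a change of the same size, nor always the same order of embryos: Spearman's rho was 0.976 for NNAT and AURKA, 0.929 for ERAS and 0.762 for RMC1.

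NNAT stood at 0.596 and 97.5 RPKM in vitrified whole embryos 1 and 2, and at 5.53, 4.79, 18.8, 3.44, 1.08 and 2.59 RPKM in fresh whole embryos 1 to 6. Its lowest, median and highest values were 0.879, 1.37 and 4.04 RPKM in vitrified TE, and fresh TE ranged over 0 to 0.373 RPKM. ERAS stood at 0.168 RPKM (1 read) and 36.3 RPKM in the vitrified whole embryos and at 2.44, 2.95, 9.25, 4.43, 1.52 and 2.09 RPKM in the fresh ones. It was at 0, 0.331 and 2.55 RPKM in vitrified TE (lowest, median and highest) and at 0 in 4 of 5 fresh TE libraries. As for POU5F1, vitrified whole embryo 2 and then fresh whole embryo 3 were highest and vitrified whole embryo 1 lowest among whole embryos for both genes. In limma NNAT was higher in fresh whole embryos than in fresh TE by 2.23 (adjusted p = 0.0091) and ERAS was higher too (adjusted p = 0.0056). Of all tested genes, 60.0% were called higher there, and these 2 had been picked by their values in whole embryos.

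**Figure D3:**
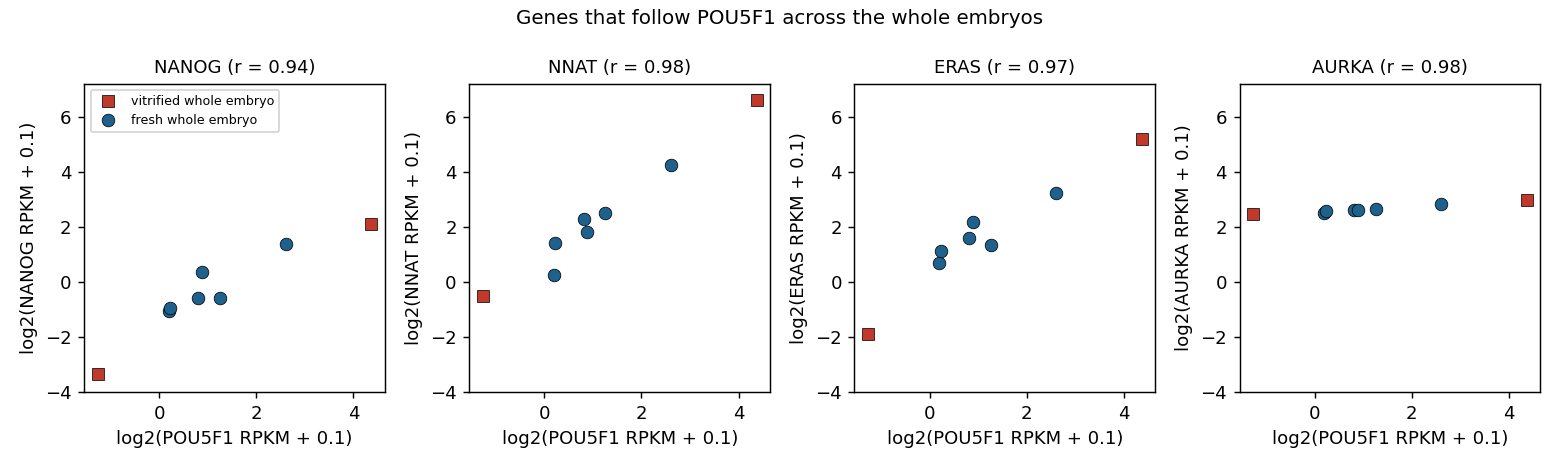
NANOG, NNAT, ERAS and AURKA against POU5F1, as log2(RPKM + 0.1), in the 2 vitrified and 6 fresh whole embryos, each point being an embryo. The vitrified embryos are the lowest and highest points for POU5F1. NNAT and ERAS span more log2 units than POU5F1 (7.13 and 7.08 against 5.64), while AURKA varies within 0.49 log2 units.

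The list of closest genes depended on the vitrified embryos. Among the 10, r over the 6 fresh embryos was from 0.807 (CCDC151) to 0.982 (AURKA), but only 2 of the 10 were among the 10 closest when fresh embryos alone were ranked. Without vitrified whole embryo 1, 3 of the 10 stayed. At the other end, ENPP1 (-0.942), P4HA2 (-0.915), PIGX (-0.905), S100A5 (-0.903) and SQLE (-0.885) had the lowest r. Their values over the fresh embryos alone were weaker, from -0.744 to -0.549.

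In vitrified TE the genes close to POU5F1 split. MSX1, a homeobox factor, averaged 131% of its fresh whole embryo mean in vitrified TE, GAS8 130%, AURKA 91.4% and RMC1 90.8%. NNAT stood at 32.4%, near POU5F1 with 35.9%, and ERAS at 19.6% and CCDC151 at 19.4%. CLDN10 had no read in any vitrified TE library. In fresh TE, by contrast, NNAT stood at 2.63% and ERAS at 1.91%, beside 2.68% for POU5F1 and 2.20% for NANOG. NNAT, ERAS and CCDC151, which spanned 3.55 to 7.13 log2 units among the embryos, all stood at higher percentages in vitrified TE than NANOG with 3.94%, and this difference between genes was not tested.

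**Figure D4:**
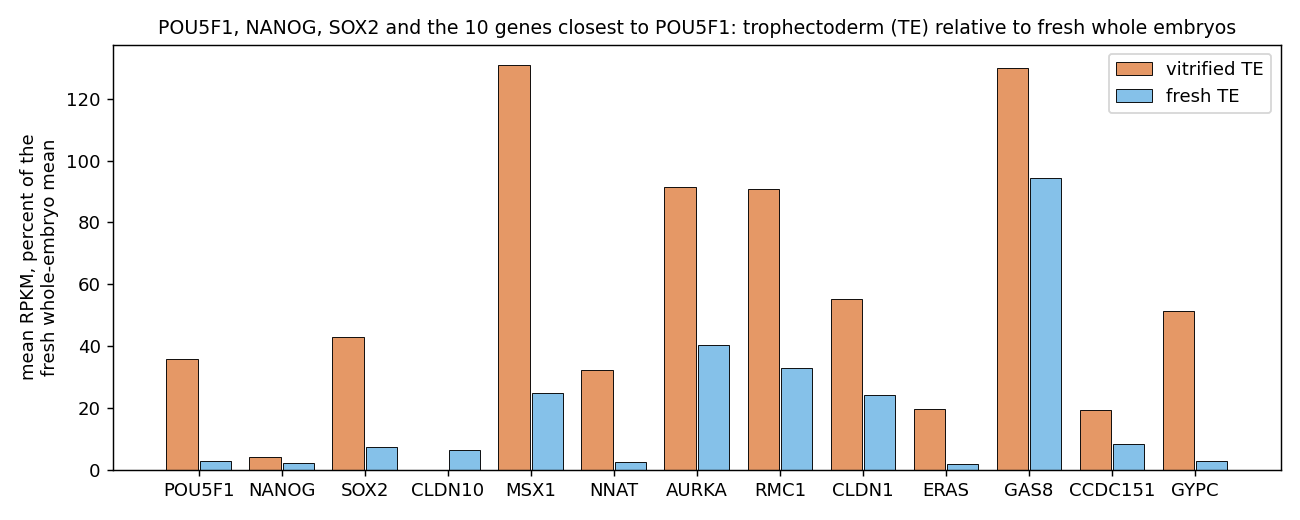
Mean RPKM in vitrified TE (n = 7) and fresh TE (n = 5) as a percent of the mean in fresh whole embryos (n = 6), for POU5F1, NANOG, SOX2 and the 10 genes whose values followed POU5F1 most closely. Bars start at 0 and carry no error. POU5F1 (35.9%), SOX2 (42.9%) and NNAT (32.4%) stand above NANOG (3.94%) in vitrified TE. There, SOX2 and NANOG each rest on 12 reads, and the difference between genes was not tested.

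Other factors of the pluripotency network were measured from a list of 39, of which 27 were in the table and 24 were tested. Against fresh TE, 12 were higher and none lower in fresh whole embryos, with a median difference of 0.08, beside 60.0% of all tested genes called higher and a median of 0.14 over them. Those with the smallest p were KLF5, KLF4, ZFP42 and SOX15. Zinc finger factor ZFP42 (REX1) averaged 24.5 RPKM in fresh whole embryos and 0.159 RPKM in fresh TE, a limma difference of 4.09 (adjusted p = 3.9e-07). KLF4, a Krüppel-like factor, averaged 9.41 RPKM in fresh whole embryos and 1.25 RPKM in fresh TE (2.17, adjusted p = 2.8e-07). These differences kept their direction and passed under each of the 3 other scalings for KLF4, KLF5, ZFP42 and SOX15, but the list as a whole did not: under quantile normalization 6 were higher and 6 lower.

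ZFP42 and SOX15 stood in vitrified TE near or above their level in fresh whole embryos. ZFP42 averaged 73.0 RPKM in vitrified whole embryos, 24.3 RPKM in vitrified TE and 24.5 RPKM in fresh whole embryos. SOX15 averaged 16.1 RPKM in vitrified TE and 8.85 RPKM in fresh whole embryos. In vitrified against fresh TE, 15 of the 24 factors were higher and 1 lower, with a median of 0.08, beside 69.0% of all tested genes called higher and a median of 0.18. Under quantile normalization 7 were higher and 5 lower. A count near or under that of all genes was thus seen in both comparisons with fresh TE.

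Of the 18 listed factors with enough reads in whole embryos, OTX2 alone followed POU5F1 with r over 0.8 (0.919), beside 1.94% of all genes. OTX2, a homeobox factor of the epiblast and anterior nervous system, stood at 0.205 and 2.34 RPKM in vitrified whole embryos 1 and 2 and at 0.155 to 0.551 RPKM in fresh whole embryos. It averaged 0.118 RPKM in vitrified TE, 0.381 RPKM in fresh whole embryos and 0.0418 RPKM in fresh TE. OTX2 was higher in vitrified whole embryos than in vitrified TE by 0.85 (adjusted p = 0.012), but by 0.11 (adjusted p = 0.58) without vitrified whole embryo 2. KLF5 and KLF4, at r of -0.22 and 0.31, did not follow POU5F1 among the embryos.

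From a list of 27 RNA-binding, chromatin and surface genes of pluripotent cells, 20 were tested. In fresh whole embryos 14 were higher than in fresh TE, and in vitrified TE 17 were higher than in fresh TE, with none lower in either. The median differences were 0.19 and 0.35, beside 0.14 and 0.18 over all tested genes, of which 60.0% and 69.0% were called higher. The surface protein PDPN averaged 18.0 RPKM in vitrified TE, 26.3 RPKM in fresh whole embryos and 0.758 RPKM in fresh TE. DNMT3B, a DNA methyltransferase that sets new methylation marks, averaged 0.372 RPKM in vitrified TE, 0.126 RPKM in fresh whole embryos and 0.0142 RPKM in fresh TE, the reverse of the order of POU5F1 between the first 2. None of the 16 ranked genes of this list followed POU5F1 with r over 0.8. Under quantile normalization the counts were 6 higher and 4 lower in fresh whole embryos, and 10 higher and 3 lower in vitrified TE.

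Signals that act on the epiblast were followed in a list of 30 genes of the NODAL, FGF and LIF pathways, of which 17 were tested. In fresh whole embryos 7 were higher and 1 lower than in fresh TE, and in vitrified TE 8 were higher and 1 lower, with median differences of 0.11 and 0.06. Of all tested genes, 60.0% were higher and 5.97% lower in fresh whole embryos, with a median of 0.14, and 69.0% were higher and 6.66% lower in vitrified TE, with a median of 0.18. SPRY2, an inhibitor induced by FGF signalling, averaged 1.27 RPKM in vitrified TE, 2.89 RPKM in fresh whole embryos and 0.290 RPKM in fresh TE, and was higher in fresh whole embryos than in fresh TE by 1.58 (adjusted p = 8.0e-08). DUSP6, a phosphatase that acts on ERK in the same pathway, averaged 2.47 RPKM in vitrified TE and 4.27 RPKM in fresh TE, and fell by 0.60 (adjusted p = 0.0064). Across the whole embryos, the 14 ranked genes of this list had a median r to POU5F1 of 0.109, under the 0.221 of all genes, and 6 were below 0. Only FGFR1, a receptor for FGF ligands, was over 0.8 (r = 0.896), as were 1.94% of all genes. Under median-ratio scaling 3 of the 17 were higher and 5 lower in vitrified TE, so that for this list the balance of directions changed with the scaling.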

How the data were processed

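RNA-seq values of 20 samples were deposited as a single table in RPKM. FastQC, STAR 2.5.3a, Partek and the UMD3.1 assembly were used by the authors, per the submitters' processing notes. Options, the counting rule and strand handling are not given in the sources used. That the deposited RPKM were made by the authors per genomic span and per M library reads, with 0.01 added, was inferred from the values. After 0.01 was subtracted, 94.5 to 95.8% of values under 1000 reads lay within 0.1 of a whole read. All values of POU5F1, NANOG and SOX2 did.

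The unit being RPKM, the planned test on counts was replaced by limma 3.58.1 (R 4.3.3, statmod 1.5.0; trend and robust) on log2(RPKM + 1) in a model of 4 group means. It was fitted to 10599 genes with at least 10 reads in at least 2 libraries (4943 left out), with Benjamini-Hochberg adjustment over all of them and a threshold of 0.05. The fit was tested on simulated data. Single genes were compared by exact two-sided permutation tests of RPKM (15 tests, unadjusted). A log2(RPKM + 1) difference understates changes of low genes. Near-identical libraries were kept apart in the tests.

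Members, lists and tests were chosen with earlier results of these data known. Named were the 3 genes, the 10 highest and 5 lowest r to POU5F1, and up to 4 list members by p in fresh whole embryos against fresh TE and up to 4 by r. The read shares and the test of vitrified TE against fresh whole embryos were added after the data were seen. List members without a row in the table used, among them the markers PTPRC, HBB, PGR and TBXT, were not analysed here. Alternatives covered pseudocount, filters, scaling, weights, a replicate block, the samples fitted and each library left out.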

Additional observations from a re-analysis of the deposited data

Results flagged for a closer look

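Of 13 sets of 4 to 10 libraries examined, 6 held a library far from the others. Some of these sets share libraries or rest on few reads, so that no chance rate can be set beside this count. Fresh whole embryo 3 stood above the other fresh whole embryos for POU5F1 (6.01 RPKM) and for NANOG (2.53 RPKM), and its NNAT (18.8 RPKM) and ERAS (9.25 RPKM) were also the highest of that group. Vitrified TE 5 stood apart for NANOG, with 0.174 RPKM from 8 reads, and for the NANOG share of NANOG and POU5F1 reads, 13.8%. Vitrified TE 1 stood apart for the SOX2 share, 18.8%, which rested on 3 SOX2 reads. In fresh TE, library 2 alone had SOX2, 0.114 RPKM from 1 read.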

How the results depend on the processing

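Of 841 recomputed values, 743 kept their direction and their side of the threshold (counts: within 1.5 times), 36 lost the threshold, 21 gained it, 27 changed sign and 14 counts moved further. The cause was not tested. Below, limma differences are on the log2 scale and p-values are adjusted over all genes; permutation differences are in RPKM. With a pseudocount of 0.1, POU5F1 passed in vitrified against fresh TE (2.48) and SOX2 in fresh whole embryos against fresh TE (1.57), NANOG in vitrified against fresh whole embryos was -0.36, and the difference of the vitrification effects was -1.93 for POU5F1 and -0.48 for NANOG. Per M reads in listed genes, that difference was -0.30 for POU5F1. NANOG in vitrified against fresh TE was -0.0071 under median-ratio scaling and -0.031 under quantile normalization. With only the groups compared, POU5F1 (0.76, adjusted p = 3.4e-05) and SOX2 (0.14, adjusted p = 0.033) passed in limma in vitrified against fresh TE, and SOX2 (0.34, adjusted p = 0.011) in fresh whole embryos against fresh TE; with sample weights POU5F1 passed in the TE comparison (0.75). With near-identical libraries averaged, NANOG in fresh whole embryos against fresh TE was 0.84 in limma, and the permutation differences 2.24 (POU5F1), 0.917 (NANOG) and 0.290 (SOX2) no longer passed with 3 fresh TE samples. In the 6 fresh embryos r was 0.760 for POU5F1 and SOX2 and 0.728 for NANOG and SOX2, and 2 of the 10 genes closest to POU5F1 stayed.

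The calls of vitrified whole embryos against vitrified TE were lost, at adjusted p of 0.057 to 0.127, under most settings: NANOG at 2.36 (pseudocount 0.1), 1.14 (no filter, only these groups, near-identical libraries averaged), 1.38 (per M listed reads), 0.93 (median-ratio), 0.90 (quantile), 1.145 (weights) and 1.21 (replicate block), and SOX2 at 1.81 (pseudocount 0.1), 0.88 (no filter, only these groups), 1.06 (per M listed reads), 0.69 (median-ratio), 0.67 (quantile), 0.89 (weights) and 0.80 (replicate block). Genes called there numbered 1998, against 629 (median-ratio), 786 (only these groups), 1251 (per M listed reads), 494 (quantile), 790 (replicate block) and 175 (weights). In vitrified against fresh whole embryos they numbered 3270, against 1864 (median-ratio), 2157 (only these groups), 1571 (quantile) and 1763 (weights). For fresh and vitrified TE, deviations of same-numbered samples correlated at -0.165 to -0.00406. Over all pairs of groups they correlated at -0.185 to 0.377, beside -0.394 to 0.4 for samples with different numbers. Whether the same replicate number pairs samples was not tested. The replicate block changed no other call of the 3 genes. Of the calls, 91.2% were higher in vitrified against fresh TE as deposited, 75.9% per M listed reads, 56.2% with median ratios and 40.4% with quantiles, and in fresh whole embryos against fresh TE 91.0, 71.3, 54.5 and 40.5%. Median-ratio and quantile scaling moved the median of all genes by -0.167 and -0.192 in the first and by -0.131 and -0.152 in the second.

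With 1 library left out, limma differences ranged as follows, where a lone vitrified whole embryo is assumed to vary like the other groups. In vitrified against fresh whole embryos they were -1.18 to 2.85 (POU5F1), -0.87 to 1.52 (NANOG) and -0.26 to 1.62 (SOX2), with 1137 to 3577 genes called. In vitrified whole embryos against vitrified TE they were -0.45 to 3.58, -0.050 to 2.33 (called in 8 of 20) and -0.062 to 1.82 in the same order, with 139 to 2336 genes called. For the difference of effects they were -1.95 to 2.09, -0.89 to 1.497 and -0.40 to 1.48. In vitrified against fresh TE they were 0.71 to 0.84 (POU5F1, called only without either vitrified whole embryo) and -0.0089 to 0.040 (NANOG), and SOX2 in fresh whole embryos against fresh TE was 0.28 to 0.41. Permutation differences were -1.99 to 18.3, -0.939 to 3.29 and -0.228 to 2.67 for the 3 genes in vitrified against fresh whole embryos, -0.511 to 19.8, -0.0370 to 4.19 and -0.0513 to 2.85 in vitrified whole embryos against vitrified TE, -0.00646 to 0.0298 (NANOG) and 0.0806 to 0.133 (SOX2) in vitrified against fresh TE, and -0.238 to -0.121 (SOX2) in vitrified TE against fresh whole embryos. The NANOG share differed by -29.4 to -25.1 points and the SOX2 share by -0.327 to 2.80. Across embryos r was 0.743 to 0.959 (POU5F1 and SOX2) and 0.686 to 0.884 (NANOG and SOX2), both lowest without vitrified whole embryo 2, and 3 to 9 of the 10 closest genes stayed. Depth limits SOX2 most, with 10 reads or fewer in 19 of 20 libraries.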
